A study of Mus musculus with 16 samples.

Results

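The glucocorticoid receptor gene Nr3c1 and 7 genes that the receptor is known to induce, Fkbp5, Tsc22d3, Zbtb16, Klf9, Sgk1, Pik3r1 and Errfi1, were followed in mouse gastrocnemius muscle at 4 ages. Members were chosen by name: every array probe whose transcript accession belongs to 1 of the 8 genes was taken, which gave 9 probes of 55588, and all 8 genes were among the 21777 genes tested. The muscles came from untreated female C57Bl/6J mice, with no allele or agent that differed between groups, aged 3, 15, 24 and 29 months, and 4 samples were measured at each age. Gastrocnemius is a mixed, mostly fast calf muscle, and RNA came from the tissue in bulk, so fewer cells of a type and less RNA per cell cannot be told apart. Whether an age's 4 samples are 4 different mice is not stated in the labels, and the p-values cover no more than the spread seen here, part of which may be technical.

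The glucocorticoid receptor is a hormone-activated transcription factor. Without hormone it rests in the cytoplasm in a complex with heat shock proteins and immunophilins; with corticosterone bound, it enters the nucleus, binds response elements in DNA and raises or lowers transcription of nearby genes. In skeletal muscle glucocorticoids are known for their catabolic action: they favour protein breakdown, slow growth signalling through insulin and IGF1, and shift fuel use toward lipid. The 8 genes stand for different places in this pathway: the receptor, a chaperone that feeds back on it (Fkbp5), nuclear regulators (Tsc22d3, Zbtb16, Klf9) and regulators of kinase signalling (Sgk1, Pik3r1, Errfi1).

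Each sample was hybridised to 1 Agilent array with 1 dye. Between 48.0% and 60.9% of the spots on an array were well above background and no spot was saturated. All 9 probes were well above background on all 16 arrays. Values are log2 signals after subtraction of the 75th percentile of the array, so that a level of 0 means the brightness of the probe at that percentile, and a level can be compared between arrays for 1 probe but not between probes. One slide carried the samples of 3 and 15 months, the other carried those of 24 and 29 months, and within a slide each age filled 1 row of arrays. The comparisons of 15 against 3 months and of 29 against 24 months therefore lie within a slide, whereas in the other 4 comparisons age and slide cannot be told apart. Row and age cannot be told apart within a slide, nor at 24 against 3 and 29 against 15 months. At 29 against 3 months and at 24 against 15 months, both ages lay in the same row of their slides. Of the skeletal muscle fibre markers (Ckm, Acta1, Myh4 and others), 12 of 12 were well above background on every array.

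The consensus element of the receptor is a palindrome of the half-site AGAACA and its reverse complement TGTTCT, separated by 3 bases. RefSeq promoter windows on GRCm38.p6, which run from 250 bases before to 50 bases after a transcription start, were present for 6 of the 8 genes (15 windows; Nr3c1 and Zbtb16 had none in the table used here). A half-site on either strand was found in 4 of these 15 windows (26.67%), beside 18.97% of all 32851 windows and 14.71% of the 34 windows of other glucocorticoid-induced genes. The 4 windows belong to 2 genes, Sgk1 with 3 and Tsc22d3 with 1. The full palindrome was found in 3 of all 32851 windows (0.00913%), and 1 of these 3 belongs to Sgk1. The Sgk1 window with the full element and the Tsc22d3 window are shown, since Tsc22d3 is the member with a half-site whose level passed the test between ages. In both sequences the capitals mark half-sites.

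Sgk1 window 5, chr10:21993640-21993939, plus strand: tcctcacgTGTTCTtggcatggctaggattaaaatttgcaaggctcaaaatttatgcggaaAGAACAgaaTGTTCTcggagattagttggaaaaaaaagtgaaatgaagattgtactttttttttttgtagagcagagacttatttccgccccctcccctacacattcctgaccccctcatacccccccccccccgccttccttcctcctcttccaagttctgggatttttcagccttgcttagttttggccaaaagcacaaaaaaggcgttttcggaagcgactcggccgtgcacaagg
Tsc22d3 window 1, chrX:140600473-140600772, minus strand: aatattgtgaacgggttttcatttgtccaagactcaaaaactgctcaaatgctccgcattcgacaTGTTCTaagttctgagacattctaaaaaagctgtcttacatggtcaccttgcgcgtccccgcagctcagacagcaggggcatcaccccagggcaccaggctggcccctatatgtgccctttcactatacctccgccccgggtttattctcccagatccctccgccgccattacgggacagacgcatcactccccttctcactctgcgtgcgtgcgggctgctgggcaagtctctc

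In Sgk1 window 5 the palindrome began at -189 relative to the transcription start, and a further single half-site began at -242. Sgk1 windows 1 and 4 each held a single half-site, at -195 and -13, and the other 3 Sgk1 windows held none. In Tsc22d3 window 1 the half-site began at -185, and the 2 other Tsc22d3 windows held none. The windows of Fkbp5, Klf9, Pik3r1 and Errfi1 held neither. A match describes the letters of a window and is not a binding site, and much binding of the receptor is known to lie in introns and distal enhancers outside such windows.

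At 29 against 3 months, 4 of the 8 genes rose and none fell: Zbtb16, Errfi1, Tsc22d3 and Klf9. In the same comparison 6.99% of all genes tested were called higher and 7.66% lower, 14.6% in either direction, at an adjusted p under 0.05. The 15-month means of Zbtb16 and Tsc22d3 lay nearer to their 29-month means than to their 3-month means, whereas those of Errfi1 and Klf9 lay nearer to 3 months. The median log2 change of the 8 genes was 0.89, beside -0.04 over all genes tested. Nr3c1 itself was not called at 29 against 3 months and had a log2 change of -0.37.

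**Figure D1:**
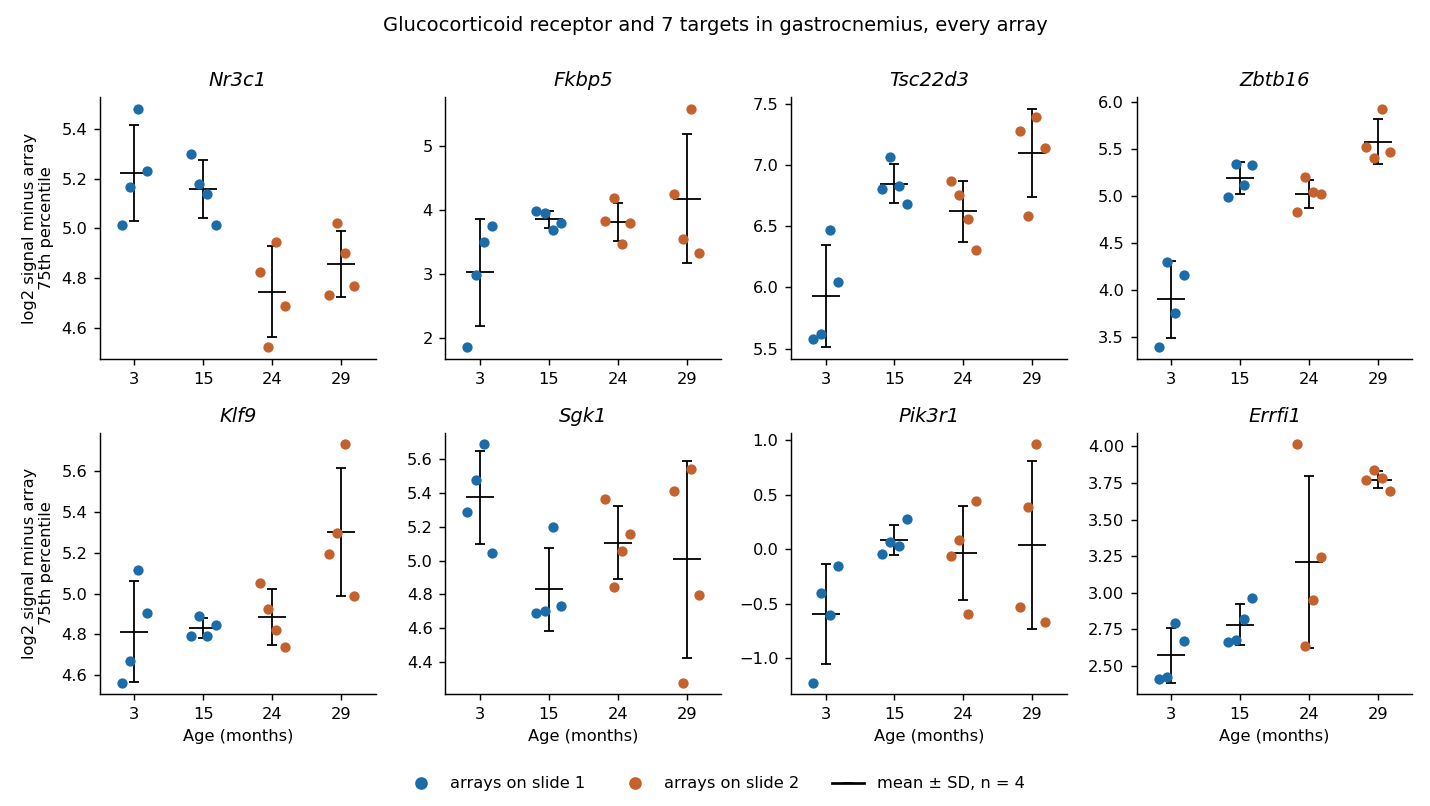
Level of each of the 8 genes (vertical axis, log2 signal minus the array's 75th percentile) in all 16 arrays at 3, 15, 24 and 29 months, with the mean and SD of 4 arrays. Colour gives the slide; the 4 arrays of 3 months lie below all others for Zbtb16, and those of 24 months lie below those of 3 and 15 months for Nr3c1.

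Nr3c1, the receptor, was represented by its brighter probe. Its level was 5.01, 5.17, 5.48 and 5.23 in the samples of 3 months and 5.30, 5.18, 5.14 and 5.02 in those of 15 months. On the other slide it was 4.83, 4.52, 4.95 and 4.69 at 24 months and 4.73, 5.02, 4.90 and 4.77 at 29 months. All 24-month samples were below all samples of 3 months, while the 29-month samples overlapped them by a single sample of 5.02 against one of 5.01.

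The receptor gene fell at 24 against 3 months by 0.48 on the log2 scale (SE 0.12, adjusted p = 0.0374), to 4.75 ± 0.18 at 24 months against 5.22 ± 0.19 at 3 months (SD, n = 4 each), or 1.39-fold lower. Of all genes tested, 4.66% were called in that comparison, 2.17% higher and 2.49% lower, and 9.08% had all samples of 24 months below those of 3 months. Its change at 29 against 3 months was -0.37 (SE 0.12, adjusted p = 0.055). Within a slide the values were small: -0.06 at 15 against 3 months (95% confidence interval -0.32 to 0.19) and 0.11 at 29 against 24 months (-0.15 to 0.37). The lower level was thus seen between the slides, where age and slide cannot be told apart. Other cells' markers moved at 24 against 3 months, and their part in the result was not tested: fibroblast markers had a median change of -0.85 with 2 of 10 lower, endothelial markers -0.62 with 1 of 9 lower, and adipocyte markers 1.51 with 1 of 8 higher. In summed level of the fibroblast markers, all samples of 24 months were below the 201.8 to 305.7 of 3 months, and replicate 2 of 24 months, which had the lowest Nr3c1 level, was the lowest of the 16 at 47.9. Replicate 3 of 29 months went the other way: second lowest in that sum (88.8), it had the second highest Nr3c1 level of its age (4.90). The second, dimmer Nr3c1 probe had changes of -0.47 at 24 against 3 months (adjusted p = 0.2) and -0.30 at 29 against 3 months (adjusted p = 0.36). The call at 24 months was lost on leaving out replicate 2, 3 or 4 of 3 months, 2 or 3 of 15 months, or 1, 2 or 4 of 24 months (adjusted p 0.0516 to 0.112), and the change at 29 against 3 months passed without replicate 1 of 3 months, 2 of 24 months or 2 of 29 months (adjusted p 0.0404 to 0.0458).

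Fkbp5 encodes an immunophilin that lowers the hormone affinity of the receptor and closes a short feedback loop. Its level was 1.86, 2.99, 3.50 and 3.75 at 3 months and 3.98, 3.95, 3.68 and 3.80 at 15 months. At 24 months it was 3.82, 4.19, 3.46 and 3.80, and at 29 months 4.24, 3.55, 5.57 and 3.34. Replicate 1 of 3 months was low and replicate 3 of 29 months was high, and the groups overlapped in all comparisons.

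Fkbp5 averaged 4.17 ± 1.01 at 29 months and 3.03 ± 0.84 at 3 months (SD, n = 4 each), a log2 change of 1.15 (SE 0.44) that did not pass the test (adjusted p = 0.0936). Its SD at 15 months was 0.14 (n = 4), so the samples spread more widely at both ends of the age range. The change was 0.68 without replicate 3 of 29 months and 0.76 without replicate 1 of 3 months, and it passed the test without replicate 4 of 29 months (1.43, adjusted p = 0.0485).

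Tsc22d3 encodes GILZ, a leucine zipper protein that mediates part of the anti-inflammatory action of glucocorticoids. Its level was 5.58, 5.62, 6.47 and 6.04 at 3 months and 6.81, 7.07, 6.83 and 6.68 at 15 months. At 24 months the level was 6.87, 6.75, 6.56 and 6.31, and at 29 months 7.28, 6.59, 7.40 and 7.14. All samples of 15 and of 29 months were above all samples of 3 months, and the samples of 15, 24 and 29 months overlapped one another.

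Tsc22d3 rose at 29 against 3 months by 1.17 (SE 0.21, adjusted p = 0.00198), with 7.10 ± 0.36 at 29 months and 5.93 ± 0.42 at 3 months (SD, n = 4 each), a 2.25-fold higher signal. In that comparison 8.74% of all genes had every sample of 29 months above those of 3 months. At 15 against 3 months, within a slide, the change was 0.92 (SE 0.21, adjusted p = 0.0516), just outside the threshold, and 5.72% of all genes had every sample of 15 months above those of 3 months. It passed there without replicate 3 of 3 months, 2 of 29 months or 3 of 29 months (adjusted p 0.0239 to 0.0469). At 24 against 3 months the change was 0.69 (adjusted p = 0.073), and it passed without replicate 3 of 3 months (0.87, adjusted p = 0.0354) or 2 of 29 months (adjusted p = 0.0477).

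Zbtb16 encodes PLZF, a zinc finger transcription factor that is strongly induced by glucocorticoids in many tissues. Its level was 3.40, 4.30, 3.76 and 4.16 at 3 months and 4.99, 5.34, 5.12 and 5.34 at 15 months. Samples of 24 months had 4.83, 5.20, 5.04 and 5.02, and at 29 months 5.52, 5.40, 5.93 and 5.47. All samples of 15, 24 and 29 months were above all samples of 3 months, and those of 29 months were also above all samples of 15 and 24 months.

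Zbtb16 was the only member called at 15 against 3 months, where 0.978% of all genes were called, 0.693% higher and 0.285% lower: it rose by 1.29 (SE 0.18, adjusted p = 0.00308), with 5.20 ± 0.17 at 15 months and 3.90 ± 0.41 at 3 months (SD, n = 4 each), a 2.45-fold higher signal measured within a slide. Adipocyte markers moved beside it (8 of 9 tested, all well above background in every sample of both ages): their summed level was 182.6 to 229.6 times the percentile at 15 months and 125.1 to 181.3 at 3 months, their median log2 change was 1.14, 1 of 8 rose (Plin4, 0.90, adjusted p = 0.0215), and their part in the result was not tested. It also rose at 24 against 3 months (1.12, SE 0.18, adjusted p = 0.00329), where 5.71% of all genes had every sample of 24 months above those of 3 months. At 29 against 3 months the rise was 1.68 (SE 0.18, adjusted p = 4.65e-05), a 3.20-fold higher signal, and 0.82% of the genes tested had a larger rise. The later steps did not pass: 0.56 at 29 against 24 months (adjusted p = 0.137) and 0.38 at 29 against 15 months (adjusted p = 0.216). The 3 calls held on leaving out any 1 of the 16 arrays and under the other alternatives tried.

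Klf9 encodes a Krüppel-like factor, a direct target of the receptor that also responds to thyroid hormone. Its level was 4.56, 4.67, 5.11 and 4.91 at 3 months and 4.79, 4.89, 4.79 and 4.85 at 15 months. On the second slide it was 5.05, 4.92, 4.82 and 4.74 at 24 months and 5.19, 5.30, 5.73 and 4.99 at 29 months. The first 3 ages lay close together, and the samples of 29 months were above all samples of 15 months but overlapped those of 3 and 24 months.

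Klf9 rose at 29 against 3 months by 0.49 (SE 0.15, adjusted p = 0.0409), with 5.30 ± 0.31 at 29 months and 4.81 ± 0.25 at 3 months (SD, n = 4 each), a 1.40-fold higher signal. At 29 against 24 months, within a slide, the change was 0.42 (adjusted p = 0.186), and at 29 against 15 months it was 0.47 (adjusted p = 0.0695). The call at 29 against 3 months was lost on leaving out replicate 1, 2 or 4 of 3 months, any replicate of 15 months, 3 of 24 months, or 2 or 3 of 29 months (adjusted p 0.0509 to 0.12). The change at 29 against 15 months passed without replicate 4 of 29 months (0.58, adjusted p = 0.0352).

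Sgk1 encodes a serine/threonine kinase of the AKT family that regulates ion transport and can counter muscle atrophy, and its promoter element is shown above. Its level was 5.29, 5.47, 5.68 and 5.04 at 3 months and 4.69, 4.70, 5.20 and 4.73 at 15 months. At 24 months it was 5.37, 4.84, 5.06 and 5.16, and at 29 months 5.41, 4.28, 5.54 and 4.80. The groups overlapped in every comparison, and the samples of 29 months spread most widely.

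Sgk1, the gene with the full element in its window, did not pass the test in any comparison, and its mean was below that of 3 months at each later age. The changes against 3 months were -0.54 at 15 months (95% confidence interval -1.05 to -0.03, adjusted p = 0.42), -0.27 at 24 months (-0.78 to 0.24) and -0.37 at 29 months (-0.88 to 0.14, adjusted p = 0.341). Without the 4 arrays to which limma's array quality weights gave the lowest weight (replicates 2 and 4 of 24 months and 1 and 3 of 29 months), a setting chosen after the data were seen, it fell at 29 against 3 months by 0.83 on the log2 scale (adjusted p = 0.0236). This leaves 2 samples of 29 months, those with the lowest Sgk1 levels of that age (4.28 and 4.80). Of 29 alternative settings, it was the only 1 in which Sgk1 was called at 29 against 3 months.

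Pik3r1 encodes the regulatory subunit p85α of phosphoinositide 3-kinase, whose excess over the catalytic subunit can dampen insulin signalling. Its level was -1.22, -0.40, -0.60 and -0.15 at 3 months and -0.04, 0.07, 0.03 and 0.28 at 15 months. Its 24-month levels were -0.06, 0.09, -0.60 and 0.44, and at 29 months -0.53, 0.39, 0.96 and -0.67. All samples of 15 months were above those of 3 months, and the samples of 24 and 29 months scattered across both.

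Pik3r1 did not pass the test at any age: its change was 0.68 at 15 against 3 months (95% confidence interval -0.02 to 1.37, adjusted p = 0.49) and 0.63 at 29 against 3 months (-0.06 to 1.33, adjusted p = 0.22). Its SD was 0.77 at 29 months and 0.14 at 15 months (n = 4 each).

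Errfi1 encodes MIG6, a scaffold protein that binds and inhibits the EGF receptor. Its level was 2.41, 2.42, 2.79 and 2.67 at 3 months and 2.66, 2.68, 2.82 and 2.96 at 15 months. At 24 months the values were 4.01, 2.63, 2.95 and 3.25, and at 29 months 3.77, 3.84, 3.78 and 3.70. The 29-month samples lay close together and above all samples of 3 and 15 months, and at 24 months replicate 1 alone stood above them.

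Errfi1 rose at 29 against 3 months by 1.20 (SE 0.21, adjusted p = 0.00198), with 3.77 ± 0.06 at 29 months and 2.57 ± 0.19 at 3 months (SD, n = 4 each), a 2.30-fold higher signal. It was the only member called at 29 against 15 months, where 7.74% of all genes were called, 3.91% higher and 3.83% lower, and 7.28% had every sample of 29 months above those of 15 months: it rose by 0.99 (SE 0.21, adjusted p = 0.0121). At 24 against 3 months the change was 0.64 (adjusted p = 0.103), and it passed without replicate 2 of 24 months (0.83, adjusted p = 0.0407). At 29 against 24 months, within a slide, it was 0.56 (adjusted p = 0.21), and it passed without replicate 1 of 24 months (0.83, adjusted p = 0.0135).

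**Figure D2:**
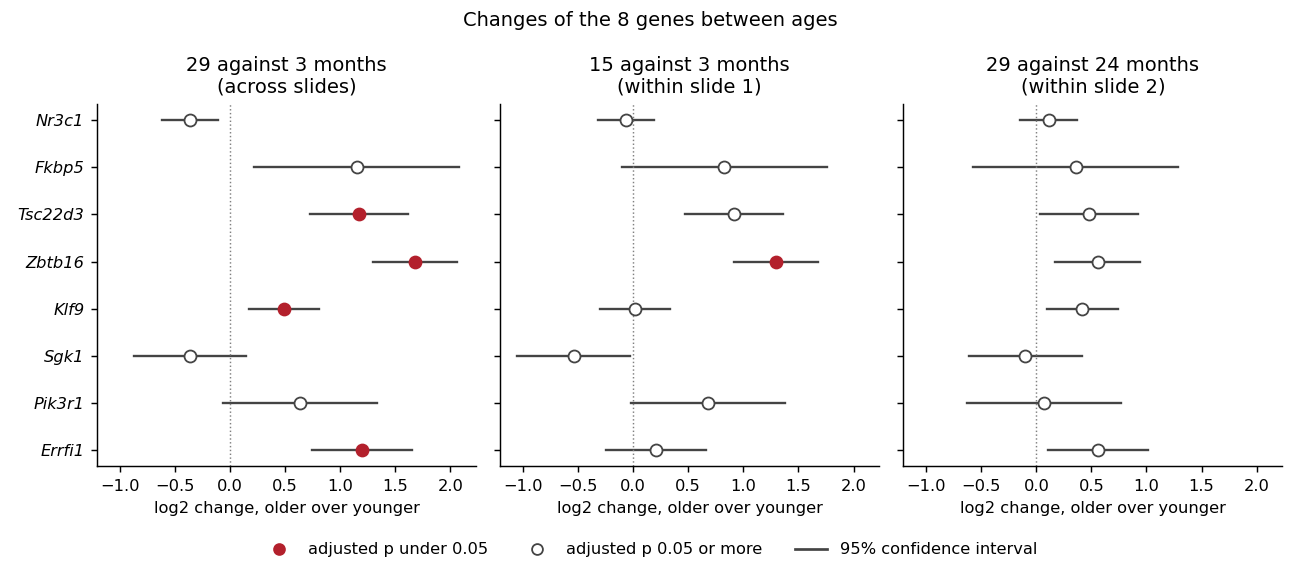
Log2 change (horizontal axis) of each of the 8 genes with its 95% confidence interval at 29 against 3 months, 15 against 3 months and 29 against 24 months. Filled points have an adjusted p under 0.05: 4 genes in the first panel, Zbtb16 alone in the second and none in the third, where 7 of 8 points lie above 0.

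The intervals within slides were set side by side. At 15 against 3 months the changes of Zbtb16, Tsc22d3, Fkbp5 and Pik3r1 lay between 0.68 and 1.29, those of Klf9, Errfi1 and Nr3c1 lay between -0.06 and 0.21, and that of Sgk1 was -0.54. At 29 against 24 months no member was called by limma, where 1.91% of all genes were called, 1.47% higher and 0.445% lower, and 4.71% had every sample of 29 months above those of 24 months. Of the 8 genes, 4 had an unadjusted p under 0.05 there, Zbtb16, Errfi1, Tsc22d3 and Klf9, with changes of 0.56, 0.56, 0.48 and 0.42, and 15.3% of all genes were under that threshold. At 24 against 15 months no member was called by limma either, where 0.0964% of all genes were called, 0.0689% higher and 0.0276% lower. There Nr3c1 alone had an unadjusted p under 0.05, as 13.4% of all genes had (-0.41, adjusted p = 0.175), with every sample of 24 months below those of 15 months, as 5.79% of all genes had.

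When a slope over age was fitted with a separate level for each slide, so that it rests on differences within slides, Zbtb16 rose by 1.08 per 10 months (SE 0.13, adjusted p = 0.00162) and Tsc22d3 by 0.79 per 10 months (SE 0.16, adjusted p = 0.0306), while 0.634% of all genes were called. The ages on the first slide lie further apart, so most of the weight falls on 15 against 3 months. The slope thus largely repeats that comparison and is not separate from it. Whether the slope holds as a rate over all ages cannot be decided, because age and slide cannot be told apart between slides. Within slides, Zbtb16 rose by 1.29 from 3 to 15 months and by 0.56 from 24 to 29 months. Across slides, it changed by 1.68 from 3 to 29 months and by -0.17 from 15 to 24 months. These last values include any difference between slides, which the slope leaves out. The Tsc22d3 slope was not called without replicate 1, 2 or 4 of 3 months or any replicate of 15 months (adjusted p 0.052 to 0.103). The slope of Sgk1 was -0.41 per 10 months (SE 0.18, adjusted p = 0.404) and that of Fkbp5 was 0.69 (SE 0.32, adjusted p = 0.454). The difference between the step of 29 against 24 months and the step of 15 against 3 months was called by limma for none of the 8 genes, where 0.67% of all genes were called. It was -0.74 for Zbtb16 (95% confidence interval -1.28 to -0.20, adjusted p = 0.223), the only member with an unadjusted p under 0.05, which 12.5% of all genes had. The steps span unequal lengths of time, and the difference was not scaled to them. A change at a steady rate would thus also give a difference.

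Single samples stood at the edge of their age for many members at once. At 3 months replicate 1 was the lowest of the 4 samples for 7 of the 8 genes, all but Sgk1. This sample was also the lowest of its age for several lists of other genes, given below. Its low position was thus not confined to the members. At 29 months replicate 3 was the highest for 6 of the 8, all but Nr3c1 and Errfi1. At 15 months replicate 1 was the lowest for 5 genes. The share of all genes for which these samples were the lowest or highest of their age was not counted.

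**Figure D3:**
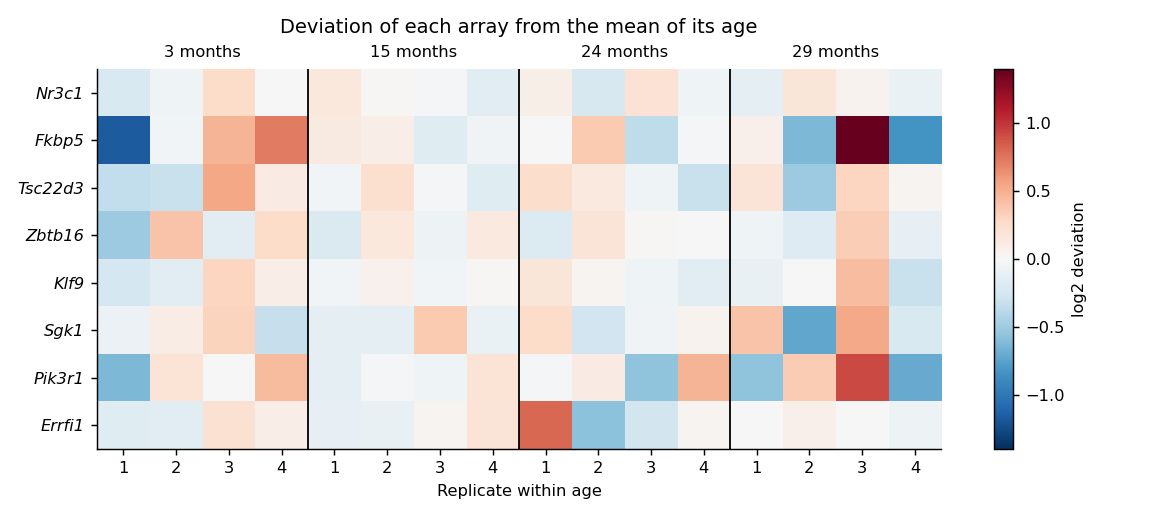
Deviation of each array from the mean of its age (colour, log2 scale) for the 8 genes (rows) and the 4 replicates of each age (columns). Replicate 1 of 3 months is lowest for 7 genes and replicate 3 of 29 months highest for 6, with the widest deviations in Fkbp5.

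The deviations of the members from their age means were compared in 28 pairs over the 16 arrays, with permutation within ages, two-sided. Pearson's r was above 0 in 26 of the 28 pairs, with a median of 0.32, and no pair passed after Benjamini-Hochberg adjustment over the 28. The highest was Fkbp5 with Klf9 (r = 0.82, permutation p = 0.00961, adjusted p = 0.224; Spearman's rho = 0.73, p = 0.0165, adjusted p = 0.217). Without the 2 arrays farthest out for Fkbp5, replicate 1 of 3 months and replicate 3 of 29 months, r was 0.65. For Fkbp5 with Pik3r1, r was 0.71 (permutation p = 0.032, adjusted p = 0.224) and 0.44 without these 2 arrays; rho was 0.49 (p = 0.133, adjusted p = 0.463). Fkbp5 with Zbtb16 had r = 0.67 (permutation p = 0.0319, adjusted p = 0.224), 0.37 without the same arrays, and rho = 0.43 (p = 0.176, adjusted p = 0.493). Zbtb16 with Pik3r1 had r = 0.60 (permutation p = 0.0257, adjusted p = 0.224) and rho = 0.56 (p = 0.0431, adjusted p = 0.302), and r = 0.53 without replicates 1 and 2 of 3 months. How often pairs of other genes had r above 0 was not counted. With quantile normalization further pairs had r below 0: Nr3c1 with Pik3r1 (-0.06), Tsc22d3 with Pik3r1 (-0.12) and Sgk1 with Pik3r1 (-0.05).

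Across all 16 arrays, the genes most like each member were taken by Pearson's r among 13354 others with a RefSeq symbol, as a description of profiles that share arrays, slides and ages. For Zbtb16 they were Plin4 (r = 0.96), a lipid droplet protein, Foxo1 (0.93), a transcription factor of the atrophy programme, and Amy2a5 (0.92). For Klf9 they were Cebpd (0.92), Gtpbp4 (0.92) and Picalm (0.91). For Errfi1 they were Slc39a14 (0.93), a zinc and iron transporter, Sik1 (0.92), a salt-inducible kinase, and Myf6 (0.92), a myogenic factor. Tsc22d3 was most like Pde7a (0.90), Glul (0.90), which encodes glutamine synthetase, and Rsrp1 (0.90), and Glul was also the first for Fkbp5 (0.86), ahead of Odf3l2 (0.86) and Lrrc30 (0.85).

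The profile of Nr3c1 was closest to Rsrc1 (0.93), Xk (0.92) and Nfatc3 (0.90). The values for Sgk1 were the lowest with those of Pik3r1: Cenpk (0.82), Cdipt (0.77) and Asb6 (0.75) for Sgk1, and Prodh (0.82), Fkbp5 (0.78) and Kctd1 (0.78) for Pik3r1.

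Of 32 other genes known to be induced by glucocorticoids, 30 were tested, and at 29 against 3 months 15 rose and 1 fell, beside 6.99% and 7.66% of all genes. Their median log2 change was 0.73. The 8 with the smallest p all rose: Pdk4, which blocks glucose oxidation (3.44, SE 0.27, adjusted p = 6.97e-06), the metallothioneins Mt2 (3.70) and Mt1 (2.50), Angptl4, an inhibitor of lipoprotein lipase (3.76), the muscle ubiquitin ligases Trim63 (2.32) and Fbxo32 (2.71), Foxo1 (1.91) and Cdkn1a (2.14), a cell cycle inhibitor. Bcl6, a transcriptional repressor, fell by 0.79 on the log2 scale (adjusted p = 0.0105). Without the 4 arrays of lowest weight 13 rose and 1 fell.

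The levels of Pdk4, which had the smallest p of the list, differed at each end of the age range. Its level was 5.83, 5.69, 5.81 and 6.26 at 3 months and 7.47, 7.74, 6.60 and 7.71 at 15 months. On the second slide it was 7.85, 6.58, 7.07 and 6.81 at 24 months and 9.08, 9.42, 9.37 and 9.46 at 29 months. The samples of 29 months were above all others and those of 3 months below all others.

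The list was also compared within slides. At 15 against 3 months the list median was 0.37, beside -0.01 over all genes. There 0.693% of all genes were called higher, and 2 of the 30 rose, Pdk4 (1.48, adjusted p = 0.0167) and Foxo1 (1.47, adjusted p = 0.0183). This count was 0 without replicate 2 of 3 months or 2 of 15 months, and 1 without replicate 1 or 3 of 3 months or 3 or 4 of 15 months. At 29 against 24 months the list median was 0.35, beside -0.03 over all genes. There 1.47% of all genes were called higher and 0.445% lower, and 8 of the 30 rose and none fell. Among the 8 were Angptl4 (2.81), Pdk4 (2.26), Fbxo32 (2.01) and Trim63 (1.75). That count was 1 without the 4 arrays of lowest weight, which leaves 2 samples at each of those ages. The difference between these steps was called by limma for none of the 30 genes. An unadjusted p under 0.05 was found for 10 of the 30, beside 12.5% of all genes. The steps span unequal lengths of time and were not scaled to them, so this difference cannot speak to timing. Across the adipocyte markers the median at 29 against 24 months was a log2 change of -1.89, 1 of 8 fell (Retn, -2.73, adjusted p = 0.0496), their summed level was 226.7 to 309.4 at 29 months and 194.0 to 420.0 at 24 months, and their part in the result was not tested.

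**Figure D4:**
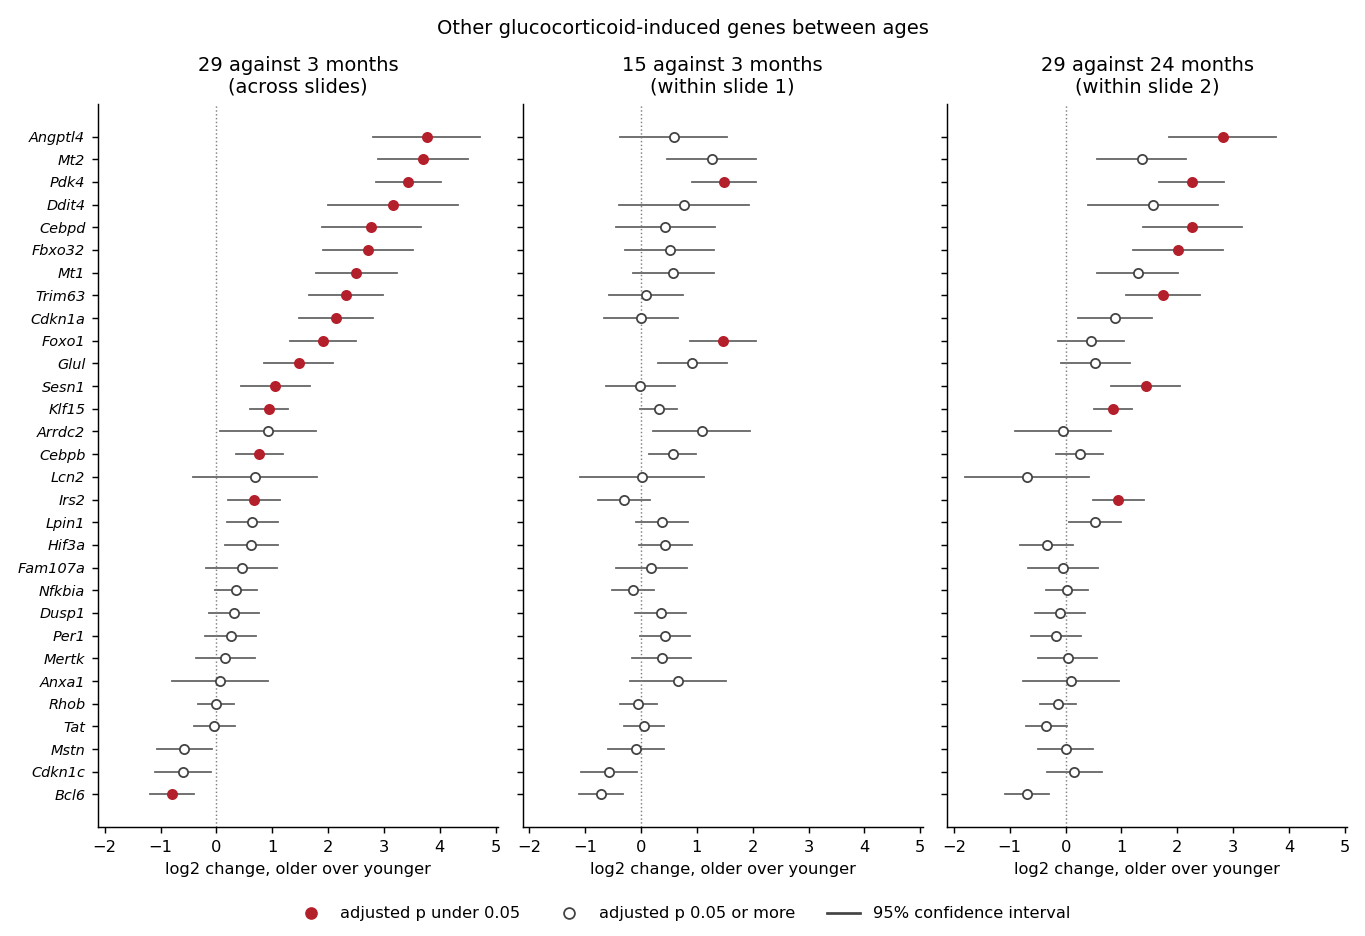
Log2 change (horizontal axis) with its 95% confidence interval for the 30 other glucocorticoid-induced genes tested (rows), at 29 against 3 months, 15 against 3 months and 29 against 24 months. Filled points have an adjusted p under 0.05: 16 genes in the first panel, 2 in the second and 8 in the third.

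Of 21 tested receptor partners, coregulators and hormone enzymes, none rose and 2 fell at 29 against 3 months, with a median change of 0.02, beside 7.66% of all genes called lower: Ncoa2, a coactivator (-0.37, adjusted p = 0.031), and Fkbp4, the immunophilin that opposes Fkbp5 (-0.47, adjusted p = 0.0498). Of 18 tested partners of PI3K, AKT and SGK, 2 rose and 3 fell. The insulin receptor Insr rose (0.36, adjusted p = 0.0299), as did the adaptor Irs2 (0.67, adjusted p = 0.0488), which is in both lists. Among those that fell were the adaptor Irs1 (-1.04, adjusted p = 0.00256) and the PI3K regulatory subunit Pik3r2 (-0.53, adjusted p = 0.00413).

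Of 8 tested ERBB receptors, ligands and feedback genes, to which Errfi1 is related by function, none rose and 3 fell at 29 against 3 months: the ligand Hbegf (-1.02, adjusted p = 0.00835), the inhibitor Lrig1 (-0.45, adjusted p = 0.0246) and the inhibitor Spry4 (-1.12, adjusted p = 0.0109), which was well above background in 1 of 4 samples of 29 months. Of 14 inflammatory genes that glucocorticoids are known to repress, 5 passed the filter on dim probes, and of these the chemokine Cxcl10 rose (5.04, adjusted p = 0.00017), being well above background in 4 of 4 samples of 29 months and 1 of 4 of 3 months.

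**Figure D5:**
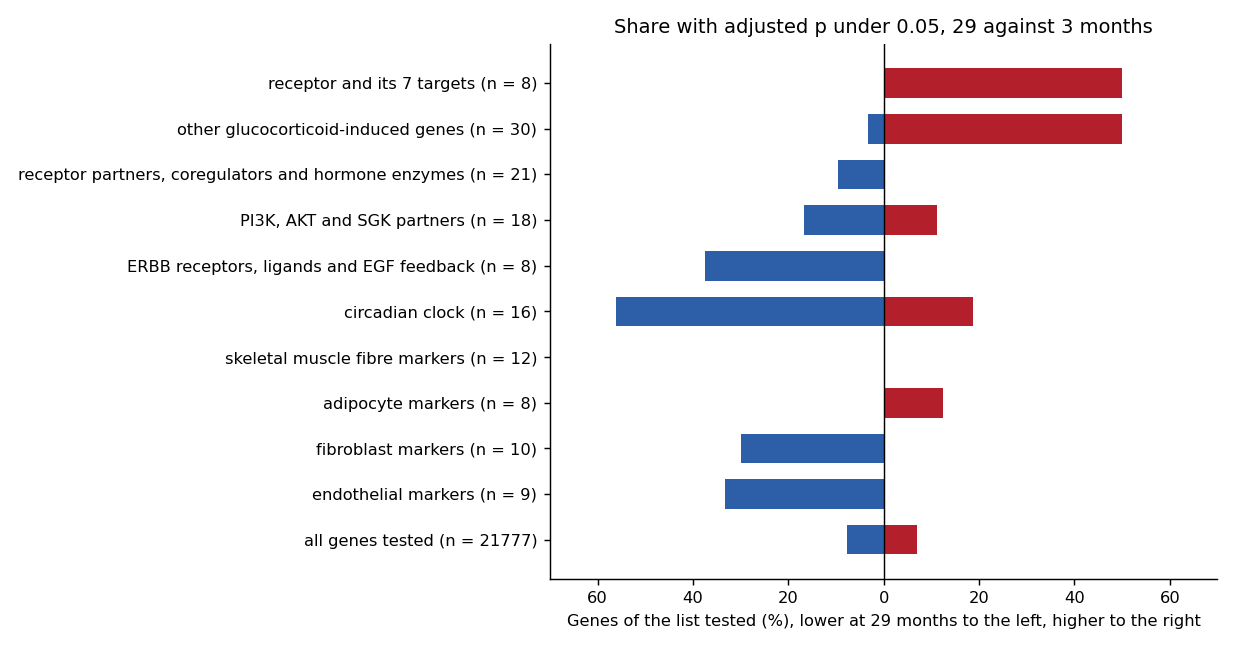
Percent of the tested genes of the lists drawn with an adjusted p under 0.05 at 29 against 3 months (horizontal axis), higher to the right and lower to the left, with the number tested beside each name. The receptor and its targets have 4 of 8 higher and none lower, and the clock list has 3 of 16 higher and 9 lower.

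Other measures moved with the same comparison, and their part in the results above was not tested. Of 16 tested clock genes, 3 rose and 9 fell at 29 against 3 months. The 4 with the smallest p were lower: the clock output factors Dbp (-3.00, adjusted p = 1.68e-05) and Hlf (-1.48), and the repressors Bhlhe40 (-1.23) and Nr1d2 (-0.59). Dbp was 2.92, 3.21, 1.85 and 3.59 at 29 months against 5.81, 5.64, 5.61 and 5.68 at 24 months, and 29 months was again apart from all other samples. At 29 against 24 months 2 clock genes rose and 6 fell, beside 1.47% and 0.445% of all genes. At 15 against 3 months 1 rose and none fell, beside 0.693% and 0.285% of all genes. The labels give no hour of tissue collection, and corticosterone has a daily rhythm. Per1, a clock gene that the receptor is known to induce and a member of both lists, had a change of 0.25 at 29 against 3 months (adjusted p = 0.469).

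Among markers of other cells, some fibroblast and endothelial markers fell, while the adipocyte list was higher in summed level but not in median change. Adipocyte markers (8 of 9 tested) had summed levels of 226.7 to 309.4 times the percentile at 29 months and 125.1 to 181.3 at 3 months, the median log2 change of the list was -0.04, and 6 to 8 of the 8 were well above background in each sample of 29 months and 8 of 8 at 3 months. In mean deviation the adipocyte list ran from -1.85 to 0.81 at 29 months, across the -0.70 to -0.33 of 3 months. Of the adipocyte markers, Plin4, the nearest profile to Zbtb16, was the only one called and rose by 1.31 (adjusted p = 0.000237). Fibroblast markers (10 of 10 tested and above background in every sample) summed to 88.8 to 208.2 at 29 months and 201.8 to 305.7 at 3 months, and 3 fell: Col1a1 (-2.59), Col3a1 (-2.21) and Cd34 (-1.16). Endothelial markers (9 of 9 tested and above background in every sample) summed to 82.3 to 118.6 at 29 months and 99.1 to 127.2 at 3 months, and Tek, Cdh5 and Tie1 fell by 0.96, 1.02 and 1.02 on the log2 scale.

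Immune markers gave 1 call at 29 against 3 months. Of all genes tested, 28.7% had an unadjusted p under 0.05 by limma in that comparison. Macrophage markers (8 of 10 tested, 8 of 8 above background in each sample of 29 months and 7 or 8 at 3 months) summed to 138.8 to 219.2 at 29 months and 109.6 to 138.0 at 3 months, with no call by limma and 2 at an unadjusted p under 0.05. T and NK cell markers (6 of 11 tested) summed to 29.9 to 60.0 at 29 months and 29.1 to 33.5 at 3 months, with no call by limma and 0 at an unadjusted p under 0.05. Among B and plasma cell markers (5 of 8 tested, summing to 0.87 to 9.97 at 29 months and 0.74 to 0.97 at 3 months), Jchain rose by 3.26 (adjusted p = 0.0284). In both lymphocyte lists the upper end at 29 months was replicate 1 alone. The other samples of that age summed to 29.9 to 30.3 for the T and NK list. For the B and plasma list they summed to 0.87 to 1.80. The muscle fibre markers summed to 10305 to 13483 at 29 months and 11233 to 12652 at 3 months, with none of 12 called by limma and 0 at an unadjusted p under 0.05. Mean deviations of a list were taken from each gene's mean over all 16 samples, not from the mean of an age. Replicate 3 of 29 months, highest for 6 members, had the lowest mean deviation of the adipocyte markers of all 16 samples (-1.85) and the second lowest of the fibroblast markers (-1.58). In summed level of the adipocyte markers, however, the same sample was the highest of 29 months (309.4). Replicate 1 of 3 months, lowest for 7, was also the lowest of its age in the mean deviation of both lists. It had -0.70 against -0.69 to -0.33 in the other 3 samples for adipocyte markers and 0.28 against 0.49 to 0.88 for fibroblast markers. It was likewise the lowest for receptor partners (-0.09), PI3K, AKT and SGK partners (-0.06) and fibre markers (-0.10). So it was for endothelial markers (0.19) and the other induced genes (-0.81). For the ERBB (0.28), inflammatory (0.14) and B and plasma lists (-0.36) it was the highest. For the clock, macrophage and T and NK lists it was neither. Its 75th percentile signal was 347.1, against 258.0 to 333.2 in the other samples of 3 months. The part of this in the low values was not tested.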

How the data were processed

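RNA from gastrocnemius was measured on 16 Agilent 1-colour arrays, 4 per age. Per the file headers, the deposited spot intensity came from Feature Extraction 10.7.1.1 (background subtracted and spatially detrended, with no normalization between arrays), on a design of build mm9, so no probe coordinates are given. The deposited series table of log2 values matched the scanner files by feature number (r 0.985 to 0.993) but not by probe name (r -0.01 to 0.02). It served only as an alternative, and the sources used here do not give how the authors made it.

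Outlier spots were left out, signals were log2 transformed and each array's 75th percentile over the averaged probes was subtracted. Probes were kept (28435) where some age had all 4 of its arrays well above background, and the brightest one represented its gene (21777 genes). Ages were compared with limma 3.58.1 in R 4.3.3 on group means over all 16 arrays (12 residual and 2.73 prior degrees of freedom), two-sided, Benjamini-Hochberg over all genes, called at an adjusted p under 0.05; slide entered only the slope over age. The fit was tested on simulated data of 29 against 3 months over 21777 genes, where 77% of genes changed by 1 on the log2 scale and 94% of those changed by 2 were recovered with 7 false calls. The simulated noise was independent between genes and arrays, with no slide effect and no uneven array quality. The false calls therefore do not estimate those of the real comparison. Pairs of members used 100000 permutations within ages (numpy 2.4.6, Python 3.11.15). Probes were named through RefSeq, and promoter windows came from RefSeq's GRCm38.p6 table. The number of arrays limits the precision.

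The members and lists were chosen with earlier results of these data known. All 8 members were to be named, with the genes of smallest p of each list (8 of the other induced genes, up to 4 called ones of other lists) and the 3 most alike profiles of each member. A gene that this rule names is not reported here. Genes called at 15 against 3 months, Bcl6, Irs2, Per1 and the single timing example of Pdk4 were singled out after their values were seen. Alternatives covered normalization, background, filters, probes, samples and models. Shared replicate numbers were checked as pairs and did not pair the samples.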

Additional observations from a re-analysis of the deposited data

Results flagged for a closer look

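The level of Sgk1 in replicate 3 of 15 months was 5.20, apart from the other 3 samples of that age at 4.69 to 4.73: the gap to the nearest was 0.913 of the whole range of the 4, above the 95% critical value of Dixon's test. It was the only 1 of 32 combinations of a member and an age that stood apart by this measure, and chance flags about 1 in 20. Without that sample the change of Sgk1 at 15 against 3 months was -0.66 (adjusted p = 0.378), against -0.54 with it. The cause was not tested.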

How the results depend on the processing

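Of 1840 recomputed changes of single members (64 results, 29 settings), 1769 kept direction and side of the threshold, 41 lost and 30 gained a call, and none that was called reversed; 36 that were called in neither fit changed sign. The calls of Zbtb16, Tsc22d3 and Errfi1 at 29 against 3 months, of Zbtb16 at 15 and 24 against 3 months and of Errfi1 at 29 against 15 months held in every setting. Nr3c1 at 29 against 3 months was called lower with the percentile over all spots (adjusted p = 0.0467), a setting chosen after the data were seen, as well as with quantile normalization, normexp, the series table, the stricter filter and trend with robust eBayes (0.0151 to 0.0491). Klf9 at 29 against 3 months was not called with median scaling, the series table, no filter, only the ages compared, the replicate block or without the 4 arrays of lowest weight (adjusted p 0.0508 to 0.166).

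Members called at 15 against 3 months were 1, and 2 with quantile normalization, normexp, the series table, the stricter filter, only the ages compared, trend and robust eBayes, array weights or without the 4 arrays of lowest weight; Tsc22d3 was the second. At 24 against 3 months they were 2, and 1 with median scaling, no filter, the mean over probes, only the ages compared, the replicate block, a 1.5-fold minimum or without those 4 arrays. They were 3 with normexp, which added Tsc22d3 (adjusted p = 0.0459), and 3 with array weights, which added Tsc22d3 (0.0359) and Errfi1 (0.0405) and lost Nr3c1 (0.0608). Of the 29 settings, Nr3c1 at 24 against 3 months was called in 14 and Klf9 at 29 against 3 months in 13. In the slope over age they were 2, and 1 with median scaling, no filter or the replicate block. Leaving out 1 array gave 1 to 2 (15 against 3), 1 to 3 (24 against 3), 3 to 5 (29 against 3), 1 to 2 (29 against 15), 0 to 1 (29 against 24), 0 (24 against 15 and the steps) and 1 to 2 (slope).

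Genes called at 15 against 3 months were 213 (89 with median scaling, 106 with no filter, 721 with only those ages, 1113 with array weights, 802 without the 4 arrays; 86 to 279 leaving out 1). At 24 against 3 months they were 1014 (512 with median scaling, 1836 with normexp, 470 with no filter, 558 with only those ages; 453 to 1282). At 29 against 3 months they were 3190 (1537 with median scaling, 1983 with only those ages, 1951 with a 1.5-fold minimum; 2185 to 3544). At 24 against 15 months they were 21 (55 with the series table, 10 with the stricter filter, 13 with only those ages, 32 with the replicate block, 139 with weights, 9 without the 4 arrays; 2 to 88). At 29 against 15 months they were 1685 (582 with median scaling, 884 with no filter, 772 with only those ages, 1012 with a 1.5-fold minimum; 829 to 1861). At 29 against 24 months they were 417 (249 with median scaling, 665 with normexp, 1075 with the series table, 153 with no filter, 9 with only those ages, 258 with the replicate block, 229 with weights, 52 without the 4 arrays; 153 to 562).

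The share of calls that were higher was 70.9% at 15 against 3 months (58.1% with normexp, 58.9% with the series table), 71.4% at 24 against 15 months (45.2%, 47.3% and 55.6% with normexp, the series table and median scaling) and 76.7% at 29 against 24 months (90.8% with median scaling, 60.2% with the series table). Median scaling moved the median of all genes to -0.15 at 24 against 3 and 24 against 15 months. The 8 rises among the other induced genes at 29 against 24 months were 1 with only those ages. No pair of members passed with quantile normalization either.

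Replicate numbers did not pair the samples: correlations of same-numbered deviations went down to -0.47, and 2 of 16 arrays correlated best with their own number. With the replicate block Nr3c1 at 24 against 3 months (adjusted p = 0.0529), Klf9 at 29 against 3 months (0.0524) and the slope of Tsc22d3 (0.0588) were not called, and it changed no other call of a member. Slide as a random block could not be estimated beside the age means and was not run; normexp used median spot signals. Causes were not tested. Precision is limited by 4 arrays per age, and Spry4, Cxcl10 and Jchain were near background at 1 age.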
